A study of Caenorhabditis elegans with 12 samples.

Results

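The genes *lipl-1*, *lipl-2*, *lipl-3*, *lipl-4* and *lipl-5* encode lysosomal acid lipases of *C. elegans*. They were taken by gene name from a table of 46904 genes, so that 5 genes of 46904 are described, in RNA of whole worms from 12 libraries. The set was chosen by family name, with the lower TPM of *lipl-5* in the N2 knockdown libraries already known. The N2 *rpia-1* (RNAi) Day 0 group held wild-type N2 worms fed bacteria that make double-stranded RNA against *rpia-1* from day 0 of adulthood. This gene encodes an isomerase of the pentose phosphate pathway. Its control, N2 EV, held N2 worms fed bacteria with the empty vector (EV), and both N2 groups are labelled day 5. The TU3401 *rpia-1* (RNAi) WL group held worms of strain TU3401 on the *rpia-1* RNAi food from the embryo on, for their whole life (WL), and TU3401 EV held worms of that strain fed the empty vector. Both TU3401 groups are labelled day 0. They carry the transgene *uIs69*, with *myo-2p*::mCherry as a marker and *unc-119p*::*sid-1*, in which the neuronal *unc-119* promoter drives the double-stranded RNA channel *sid-1* and makes neurons more sensitive to RNAi. Every group had 3 samples of at least 500 pooled worms, collected independently. The study's methods give day 5 of adulthood for all of them, against the labels of the TU3401 groups. The descriptions of the TU3401 samples read L4, a stage that the study's lifespan methods set as day 0. Strain, onset of the knockdown and labelled age differ together between the N2 and TU3401 groups and cannot be told apart.

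Lysosomal acid lipases cut triglycerides and other lipids that reach the lysosome, the acidic compartment in which cells break down what autophagy and endocytosis bring in. In the worm the intestine is the main fat store and the main site of *lipl* expression. The genes *lipl-1*, *lipl-2* and *lipl-3* are known to respond to fasting, with the transcription factor HLH-30, the worm's TFEB, as an activator and MXL-3 as a repressor. LIPL-4 is known for a signalling route in which LBP-8, a lipid-binding protein, carries a lipid from the lysosome to the nuclear receptors NHR-49 and NHR-80, and a worm with more intestinal LIPL-4 lives longer. LIPL-5 is a lysosomal lipase whose loss is known to make worms leaner.

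All 5 genes lie on chromosome V of the WBcel235 assembly in the Ensembl annotation, release 115, as protein-coding genes. The gene *lipl-1* (WBGene00010062) spans 12919986 to 12921692 on the plus strand, with 5 exons and a protein of 405 residues. *lipl-2* (WBGene00009773) spans 9791567 to 9793241 on the plus strand, with 5 exons and 411 residues. *lipl-3* (WBGene00020016) spans 521595 to 524218 on the minus strand, with 7 exons and 404 residues. *lipl-4* (WBGene00019376) spans 6550171 to 6552186 on the plus strand, and its longest coding transcript has 5 exons and 411 residues. *lipl-5* (WBGene00022642) spans 385746 to 387740 on the plus strand, and its longest coding transcript has 6 exons and 403 residues. The proteins are thus of nearly the same length, and the genes are spread over the chromosome rather than standing side by side. The gene *lipl-3* shares 23 bases with *srw-107* on the same strand, which averaged 0.0135 TPM over the 12 libraries. *lipl-4* shares bases with 2 genes on the opposite strand, a tRNA gene and the non-coding *K04A8.15*, both near 0 TPM.

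Levels are given as deposited in TPM, which is scaled per length of the gene and per library. Because of how the genes were chosen, their values in the N2 libraries, and every comparison that uses them, are a description with no test. The comparison of TU3401 *rpia-1* (RNAi) WL with TU3401 EV was tested. Fold differences were fitted on log2(TPM + 1) by limma, for all genes whose mean reached 1 TPM in the libraries fitted, and an adjusted p (Benjamini-Hochberg over all genes tested) under 0.05 passed. This scale understates the change of a gene at a low level. *lipl-1*, *lipl-2* and *lipl-5* passed the minimum and *lipl-3* and *lipl-4* did not. The targeted gene *rpia-1* averaged 30.2 ± 2.68 TPM in N2 *rpia-1* (RNAi) Day 0 and 121 ± 6.50 TPM in N2 EV (SD, n = 3 each), a difference of −1.97 on the log2 scale (SE 0.08, adjusted p = 5.32e-04 by limma). In whole TU3401 worms it averaged 92.3 ± 12.7 TPM with *rpia-1* RNAi and 110 ± 4.56 TPM with EV (SD, n = 3 each), and its difference of −0.26 had an adjusted p of 1.00 by limma. The depth in reads is unknown. Relative depth, as estimated from low values of piRNA genes in TPM, was 0.786 to 1.20 of the median library. In FPKM, the other measure deposited, it was 0.631 to 1.18. N2 EV replicate 2 was the lowest in both. Genes above 0 TPM numbered 22388 in N2 *rpia-1* (RNAi) Day 0 replicate 1 and 17777 to 19135 in the other N2 libraries, so that results which rest on this library are given with and without it.

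*lipl-5* was by far the most abundant of the 5 genes, and its level was lower in N2 *rpia-1* (RNAi) Day 0 than in N2 EV. It had 205, 153 and 151 TPM in N2 *rpia-1* (RNAi) Day 0 replicates 1, 2 and 3, against 243, 242 and 251 TPM in N2 EV. Every knockdown library lay below every EV library, the EV libraries lay within a narrow range, and knockdown replicate 1 was the nearest to them. The means were 170 ± 30.5 TPM in the knockdown and 245 ± 4.98 TPM in EV (SD, n = 3 each), a ratio of 0.694. The fitted difference was −0.54 on the log2 scale (SE 0.11). In TU3401 the levels of *lipl-5* overlapped, with 345, 422 and 475 TPM in *rpia-1* (RNAi) WL replicates 1, 2 and 3, against 373, 412 and 409 TPM in EV. The knockdown libraries held both the lowest and the highest value of the 6. Means were 414 ± 65.4 TPM with the knockdown and 398 ± 21.5 TPM with EV (SD, n = 3 each), and the difference of 0.05 (SE 0.13) did not pass (adjusted p = 1.00 by limma). An interval of 2 SE runs over folds of 0.868 to 1.23. In N2 such an interval ran over folds of 0.588 to 0.807, as a description, and the strains were not compared by a test.

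*lipl-2*, one of the fasting-responsive lipases, was lower in the N2 knockdown libraries as well. It had 3.09, 2.30 and 2.26 TPM in N2 *rpia-1* (RNAi) Day 0 replicates 1, 2 and 3, against 4.56, 4.60 and 4.26 TPM in N2 EV. The groups did not overlap, and replicate 1 was again the knockdown library nearest to EV. The ratio of the means was 0.569, with 2.55 ± 0.468 TPM in the knockdown and 4.48 ± 0.185 TPM in EV (SD, n = 3 each), and the fitted difference was −0.63 (SE 0.18). In TU3401 *lipl-2* had 19.7, 14.6 and 16.5 TPM in *rpia-1* (RNAi) WL, against 15.5, 14.96 and 18.1 TPM in EV. These groups overlapped, and the difference of 0.05 (SE 0.16) did not pass (adjusted p = 1.00 by limma), with an interval of 2 SE over folds of 0.833 to 1.29.

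*lipl-1*, which also responds to fasting, differed less between knockdown and EV. It had 14.6, 17.2 and 15.9 TPM in N2 *rpia-1* (RNAi) Day 0 replicates 1, 2 and 3, against 21.3, 19.5 and 16.7 TPM in N2 EV. The ranges overlapped, since EV replicate 3 lay below knockdown replicate 2. The ratio of the means was 0.830 and the fitted difference −0.25 (SE 0.13). In TU3401 it had 14.1, 10.7 and 7.46 TPM in *rpia-1* (RNAi) WL replicates 1, 2 and 3, against 10.4, 9.49 and 12.5 TPM in EV. The knockdown libraries spread on both sides of the EV libraries, and the difference of −0.04 (SE 0.23, adjusted p = 1.00 by limma) did not pass. Its interval of 2 SE, over folds of 0.712 to 1.33, is wider than those of *lipl-2* and *lipl-5*.

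*lipl-4*, the lipase of the lysosome-to-nucleus route, was near or below 1 TPM throughout. It had 0.533, 0.783 and 0.448 TPM in N2 *rpia-1* (RNAi) Day 0, against 0.812, 0.938 and 1.16 TPM in N2 EV. In TU3401 it had 0.308, 0.477 and 0.424 TPM in *rpia-1* (RNAi) WL, against 0.137, 0.236 and 0.298 TPM in EV. In TPM the groups did not overlap in either strain, but every knockdown library was below EV in N2 and above EV in TU3401. The ratio of the means was 0.606 in N2 and 1.80 in TU3401. *lipl-4* lies under the minimum of 1 TPM. In a fit of TU3401 with no minimum level its difference was 0.20 (SE 0.07) and did not pass (adjusted p = 1.00 by limma). *lipl-3*, a fasting-responsive lipase, had 1.02, 0.811 and 0.353 TPM in N2 *rpia-1* (RNAi) Day 0, against 0.553, 0.867 and 0.776 TPM in N2 EV. It had 0.396, 0.170 and 0.166 TPM in TU3401 *rpia-1* (RNAi) WL, against 0.279, 0.267 and 0.246 TPM in TU3401 EV. Knockdown and EV overlapped in both strains, and the ratio of the means was 0.996 in N2 and 0.924 in TU3401. In the same TU3401 fit with no minimum level its difference was −0.03 (SE 0.08, adjusted p = 1.00 by limma).

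**Figure D1:**
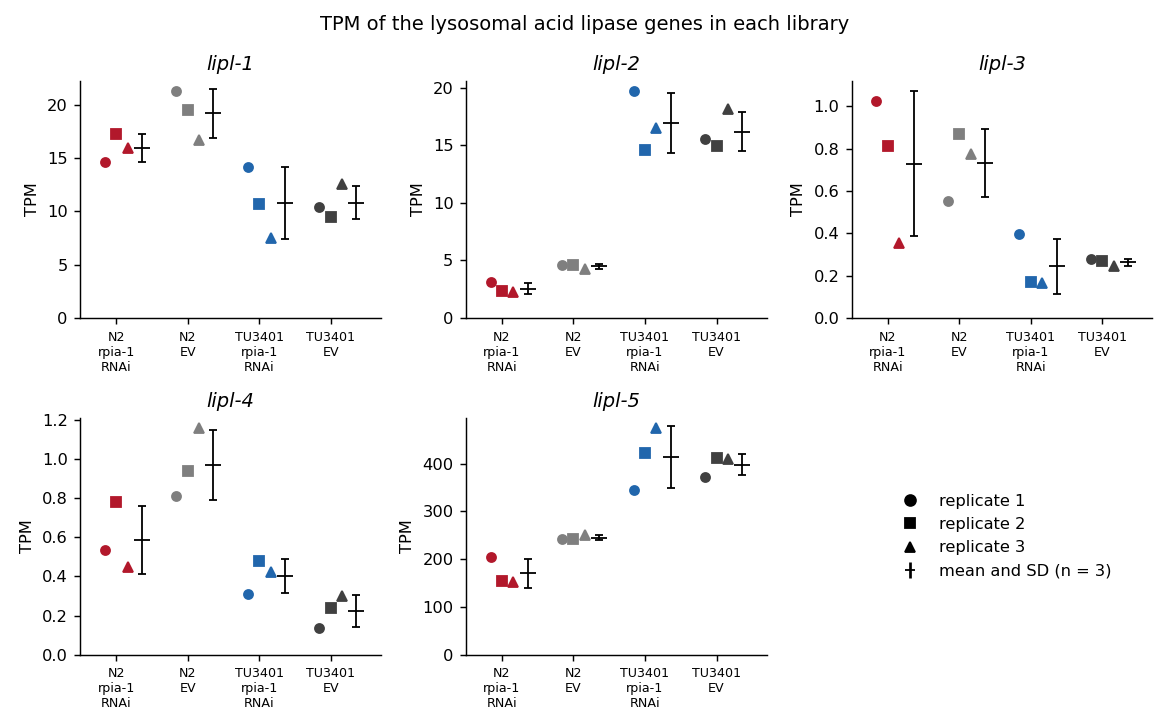
TPM of each lipase gene (vertical axis, linear from 0, a scale of its own in each panel) in the 4 groups. Points are libraries, with the replicate by shape, and the black bar beside them is the mean with its SD (n = 3). The N2 knockdown libraries lie below N2 EV for *lipl-2*, *lipl-4* and *lipl-5*, and in TU3401 only *lipl-4* separates, with the knockdown above EV.

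Knockdown and EV libraries of N2 thus did not overlap in 3 of the 5 lipases (*lipl-2*, *lipl-4* and *lipl-5*), each lower in the knockdown, where 3.26% of the 14319 genes above 0 in all 6 libraries were lower without overlap and 2.53% higher. *lipl-5* was known to be lower when the genes were chosen, so nothing is read from that count. In TU3401, 1 of the 5 did not overlap (*lipl-4*, higher), where 1.76% of 17127 genes were higher without overlap and 2.54% lower. None of the 3 lipases tested in TU3401 passed, and 0% of the 13921 genes tested there passed in limma, with 164 at an unadjusted p under 0.05. In N2, 0.00941% of the 10626 genes tested passed, a single gene, *rpia-1*. Without N2 *rpia-1* (RNAi) Day 0 replicate 1, the fitted difference was −0.68 (SE 0.04) for *lipl-5*, −0.74 (SE 0.14) for *lipl-2* and −0.19 (SE 0.12) for *lipl-1*. In that fit 33 genes passed, all of them lower in the knockdown, which is 0.321% of the 10293 genes tested. The values of the lipases are a description there too.

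Fitted over all 12 libraries, the change in N2 minus that in TU3401 was −0.58 (SE 0.18) for *lipl-5*, −0.69 (SE 0.22) for *lipl-2* and −0.21 (SE 0.27) for *lipl-1*. In that fit 0.00747% of the 13383 genes tested passed, again *rpia-1* alone. It differed by −1.72 (SE 0.14, adjusted p = 5.03e-04 by limma).

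**Figure D2:**
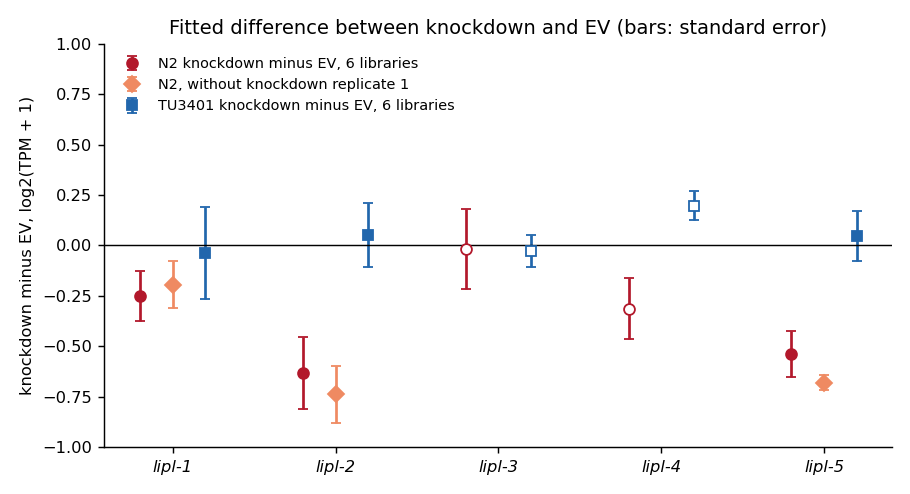
Fitted difference, knockdown minus EV, on log2(TPM + 1) (vertical axis) for each lipase gene. Circles are N2 over 6 libraries, diamonds N2 without knockdown replicate 1 and squares TU3401 over 6 libraries, with bars of 1 SE, and open symbols mark *lipl-3* and *lipl-4*, taken from a fit with no minimum level. In N2 *lipl-5* lies at −0.54 with all libraries and at −0.68 without knockdown replicate 1, and in TU3401 at 0.05.

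In summed TPM the 5 lipases reached 190 ± 30.1 in N2 *rpia-1* (RNAi) Day 0 and 270 ± 3.07 in N2 EV (SD, n = 3 each). The sums were 442 ± 60.2 in TU3401 *rpia-1* (RNAi) WL and 425 ± 22.6 in TU3401 EV (SD, n = 3 each). *lipl-5* made up 87.9% to 91.4% of the sum in the N2 knockdown libraries, 89.9% to 91.6% in N2 EV, 90.9% to 95.1% in the TU3401 knockdown libraries and 92.9% to 94.3% in TU3401 EV. The sum therefore followed *lipl-5* in every group. *lipl-1* ranked next in N2, at 8.57% in the knockdown and 7.10% in EV on average. In TU3401 *lipl-2* ranked next, at 3.92% in the knockdown and 3.81% in EV on average.

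The order of the groups was not the same for all lipases. From high to low, *lipl-5* and *lipl-2* both ran TU3401 *rpia-1* (RNAi) WL, TU3401 EV, N2 EV and N2 *rpia-1* (RNAi) Day 0. The TU3401 groups overlapped, and the other neighbours in this order did not. *lipl-1* ran N2 EV, N2 *rpia-1* (RNAi) Day 0 and then the TU3401 groups, with overlap within each strain and none between the strains. *lipl-4* ran N2 EV, N2 *rpia-1* (RNAi) Day 0, TU3401 *rpia-1* (RNAi) WL and TU3401 EV, and only the middle pair overlapped. *lipl-3* was higher in N2 than in TU3401, with overlap between knockdown and EV in each strain and between the knockdown groups of the strains.

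Between the controls, N2 EV and TU3401 EV, none of the 5 lipases overlapped. *lipl-1* averaged 19.2 ± 2.33 TPM in N2 EV and 10.8 ± 1.56 TPM in TU3401 EV (SD, n = 3 each), *lipl-3* 0.732 ± 0.162 TPM in N2 EV and 0.264 ± 0.0163 TPM in TU3401 EV, and *lipl-4* 0.970 ± 0.177 TPM in N2 EV and 0.224 ± 0.0812 TPM in TU3401 EV. These 3 were higher in N2 EV, where 42.5% of the 14431 genes above 0 in all 6 libraries were higher without overlap. *lipl-2*, with 4.48 ± 0.185 TPM in N2 EV and 16.2 ± 1.70 TPM in TU3401 EV, and *lipl-5*, with 245 ± 4.98 TPM in N2 EV and 398 ± 21.5 TPM in TU3401 EV, were lower in N2 EV (SD, n = 3 each), where 40.5% of genes were lower without overlap. The fitted differences were 0.77 (SE 0.14) for *lipl-1*, −1.65 (SE 0.12) for *lipl-2* and −0.70 (SE 0.06) for *lipl-5*. Of the 13348 genes tested, 88.8% passed, 43.4% higher and 45.4% lower. The size of *lipl-1* in this comparison rests on the scaling, since it was 0.11 where each library was divided by its median ratio to the other libraries. That scaling moved the median of all genes to −0.67, against −0.06 in TPM, and left the directions of the other 4 lipases as they were.

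Summed intestine markers had a lower mean in the N2 knockdown than in N2 EV, as *lipl-5* and *lipl-2* did, but the sums overlapped. Of 11 marker genes of the intestine in the table, all were above 0 in every library. Their summed TPM was 488 to 621 in N2 *rpia-1* (RNAi) Day 0 and 608 to 692 in N2 EV, and 3524 to 4029 in TU3401 *rpia-1* (RNAi) WL and 3756 to 4217 in TU3401 EV. In N2, 10 of the 10 markers tested had a lower mean in the knockdown, with a median of −0.35, against −0.00 over all genes tested, and none passed. Without N2 *rpia-1* (RNAi) Day 0 replicate 1 it was 9 of 10, with a median of −0.46. Per 100 TPM of intestine markers, *lipl-5* stood at 30.9 to 33.1 TPM in N2 *rpia-1* (RNAi) Day 0 and at 34.9 to 39.9 TPM in N2 EV, without overlap. *lipl-2* stood at 0.461 to 0.498 TPM in N2 *rpia-1* (RNAi) Day 0 and at 0.666 to 0.751 TPM in N2 EV. These values reuse the N2 libraries in which the lower *lipl-5* was already known, and are a description with no test. The N2 groups of *lipl-5* and *lipl-2* were apart on this scale too. *lipl-1* was not, with 2.36 to 3.53 TPM in N2 *rpia-1* (RNAi) Day 0 and 2.61 to 3.51 TPM in N2 EV per 100 TPM of markers, and means of 3.04 in the knockdown and 2.98 in EV. In whole-worm RNA, fewer cells of a type and less RNA per cell cannot be told apart. Between the EV groups the order of *lipl-5* turned on this scale. It had 34.9 to 39.9 TPM per 100 TPM of markers in N2 EV and 9.70 to 10.2 TPM in TU3401 EV. *lipl-2* turned likewise, with 0.666 to 0.751 TPM in N2 EV and 0.371 to 0.430 TPM in TU3401 EV. In a sum, abundant markers weigh most. Taken gene by gene, all 11 markers were lower in N2 EV, with a median log2 difference of −1.68. The difference of *lipl-2* was −1.65 and that of *lipl-5* −0.70, so *lipl-2* was nearly level with the median marker. Summed germline markers were 5027 to 5317 TPM in N2 EV and 2365 to 2978 TPM in TU3401 EV, and summed body wall muscle markers 111 to 128 TPM in N2 EV and 4079 to 4840 TPM in TU3401 EV. Sperm markers summed to 0.824 to 2.85 TPM in N2 EV and 1025 to 1403 TPM in TU3401 EV. The part of these tissues in the lipase levels was not tested.

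**Figure D3:**
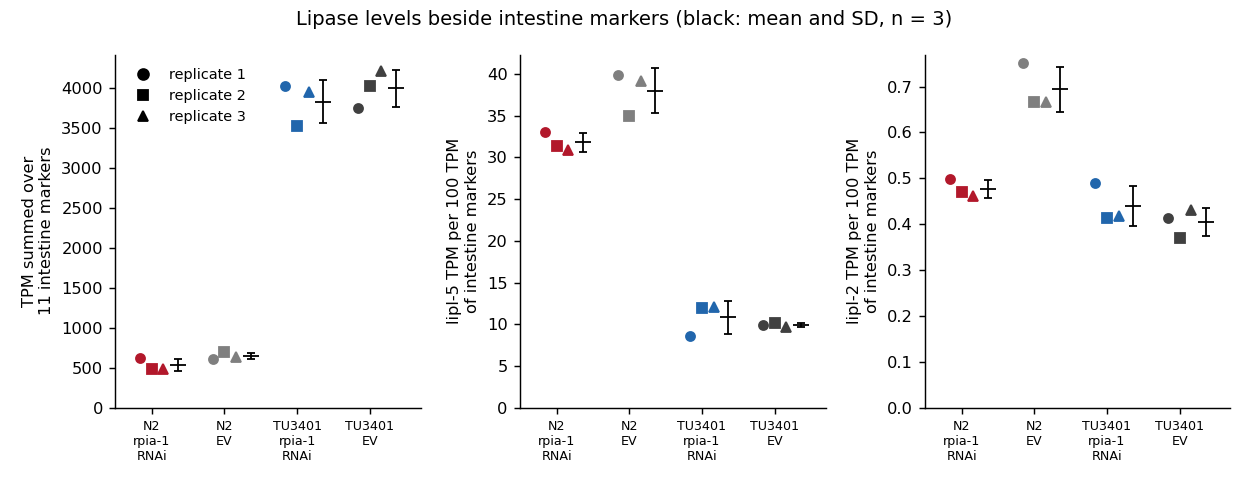
Summed TPM of 11 intestine marker genes (left) and the TPM of *lipl-5* (middle) and *lipl-2* (right) per 100 TPM of these markers, by group on linear axes from 0. Points are libraries, with the replicate by shape, and black bars give the mean and SD (n = 3). The N2 knockdown libraries lie below N2 EV in the middle and right panels, at 30.9 to 33.1 against 34.9 to 39.9 for *lipl-5*.

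Of the other genes of the family, *lipl-7* alone passed the minimum of 1 TPM. It had 13.01, 4.28 and 4.49 TPM in N2 *rpia-1* (RNAi) Day 0 replicates 1, 2 and 3, against 4.52, 4.17 and 6.38 TPM in N2 EV. Its difference of 0.31 (SE 0.40) came from knockdown replicate 1, and without that library it was −0.15 (SE 0.19), and neither passed. In TU3401 *lipl-7* had 6.44, 7.17 and 8.03 TPM in the knockdown, against 8.34, 8.16 and 9.71 TPM in EV, and the difference of −0.25 (SE 0.16, adjusted p = 1.00 by limma) did not pass although the libraries did not overlap. *lipl-6* stayed below 0.8 TPM in all 12 libraries, and *lipl-8* was listed at 0 in all of them.

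Of 14 regulator genes, 13 were tested in N2, of which 5 had a higher and 8 a lower mean in the knockdown with a median of −0.02, and 14 in TU3401, of which 9 had a higher and 5 a lower mean. None passed in either strain. *hlh-30*, the activator, had 33.2, 21.5 and 22.4 TPM in N2 *rpia-1* (RNAi) Day 0 replicates 1, 2 and 3, against 22.5, 24.6 and 25.1 TPM in N2 EV. *mxl-3*, the repressor, had 16.3, 6.55 and 6.84 TPM in N2 *rpia-1* (RNAi) Day 0, against 10.2, 8.89 and 8.66 TPM in N2 EV. Knockdown replicate 1 was the highest N2 library in both genes. With it the difference was 0.07 (SE 0.17) for *hlh-30* and −0.02 (SE 0.32) for *mxl-3*, and without it −0.12 (SE 0.08) for *hlh-30* and −0.41 (SE 0.12, adjusted p = 0.437 by limma) for *mxl-3*, and none of these passed. *elt-2*, the GATA factor of the intestine, averaged 1.73 ± 0.329 TPM in N2 *rpia-1* (RNAi) Day 0 and 2.19 ± 0.177 TPM in N2 EV (SD, n = 3 each). Its difference of −0.23 (SE 0.19) did not pass, nor did that of −0.32 (SE 0.16) without knockdown replicate 1. In TU3401 *hlh-30* had 35.0 ± 8.48 TPM in the knockdown and 33.9 ± 1.12 TPM in EV, and *mxl-3* 40.8 ± 4.67 TPM in the knockdown and 42.3 ± 1.47 TPM in EV (SD, n = 3 each).

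Of 8 genes of the lysosome-to-nucleus route, 7 were tested in each strain and none passed. A lower mean in the N2 knockdown was found for 3 of 7, and for 5 of 7 without knockdown replicate 1. *nhr-80*, a partner receptor of this route, averaged 1.63 ± 0.648 TPM in N2 *rpia-1* (RNAi) Day 0 and 2.62 ± 0.279 TPM in N2 EV (SD, n = 3 each), without overlap between the groups. *nhr-49*, the other receptor, averaged 120 ± 2.16 TPM in the knockdown and 123 ± 3.22 TPM in EV, with overlap. *lbp-8*, the lipid carrier, was below 1 TPM in every library. Of 12 genes of lipid droplets and cytosolic lipolysis, 10 were tested in N2, of which 7 had a lower and 3 a higher mean in the knockdown, with a median of −0.06, and none passed. *atgl-1*, the lipase that cuts triglycerides on lipid droplets outside the lysosome, averaged 73.5 ± 3.10 TPM in N2 *rpia-1* (RNAi) Day 0 and 74.7 ± 0.873 TPM in N2 EV (SD, n = 3 each), a difference of −0.02 (SE 0.05).

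The hydrolase genes listed here as lysosomal were mostly lower in the N2 knockdown libraries, without passing the threshold. Where in the cell or gut each of these proteins acts was not tested. Of 17 listed proteases, nucleases and sugar hydrolases tested, 14 had a lower mean, with a median of −0.33, against −0.00 over all genes tested. Intestine markers were lower to a like degree, 10 of 10 with a median of −0.35, so the lower levels were not particular to these hydrolases. In 5 of the 17 the N2 groups did not overlap, all lower in the knockdown, where 3.15% of the genes tested were lower without overlap. *cpl-1*, a cathepsin L, averaged 139 ± 13.6 TPM in N2 *rpia-1* (RNAi) Day 0 and 179 ± 9.36 TPM in N2 EV, and *asp-3*, an aspartic protease like cathepsin D, 129 ± 11.8 TPM in the knockdown and 175 ± 18.4 TPM in EV (SD, n = 3 each). Without N2 *rpia-1* (RNAi) Day 0 replicate 1 all 17 had a lower mean, with a median of −0.47, and 5 passed in limma. These were *cpr-6*, *cpr-5* and *cpr-4*, of the cathepsin B type, *cpl-1* and the aspartic protease *asp-5*, of which *cpr-5* and *asp-5* are named after their values were seen. Of all 10293 genes in that fit 0.321% passed, each of them lower in the knockdown. The list was chosen with earlier results of these data known, so the 5 passes are a description. In TU3401, 13 of 19 had a lower mean with the knockdown, with a median of −0.02, and none passed.

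Of 11 other lysosomal lipid hydrolases and sterol carriers tested in N2, 7 had a lower mean in the knockdown, with a median of −0.22 and none past the threshold. In TU3401, 12 of 13 had a lower mean in the knockdown, with a median of −0.06, against 0.00 over all genes tested, and none passed. *asah-2*, an acid ceramidase, averaged 10.2 ± 2.32 TPM in N2 *rpia-1* (RNAi) Day 0 and 13.7 ± 1.05 TPM in N2 EV, *gba-4*, a glucosylceramidase, 3.72 ± 0.622 TPM in the knockdown and 5.24 ± 0.369 TPM in EV, and *asm-3*, an acid sphingomyelinase, 7.26 ± 1.43 TPM in the knockdown and 9.53 ± 0.735 TPM in EV (SD, n = 3 each). Taken as a list, the membrane and acidification genes of the lysosome did not have this pattern. A lower mean in the N2 knockdown was found for 9 of 26 and a higher mean for 17, with a median of 0.03. Single genes of the list went either way, with 1 lower without overlap, *scav-1*, and 1 higher. The difference was −0.39 (SE 0.21) for *scav-1*, −0.19 (SE 0.13) for *vha-6* and 0.03 (SE 0.09) for *cup-5*. Of these, *vha-6* is also one of the intestine markers used here. The 6 yolk protein genes, which the intestine makes, all had lower means in the N2 knockdown without overlap, with a median of −0.49. Of all genes tested in N2, 3.15% were lower without overlap. In the TU3401 knockdown the 6 yolk protein genes had higher means, with a median of 0.13, and none passed in either strain. Without N2 *rpia-1* (RNAi) Day 0 replicate 1, a lower mean was found for 6 of 6 yolk protein genes (median −0.37), 7 of 11 lysosomal lipid hydrolases and sterol carriers (median −0.24), 11 of 26 membrane and acidification genes (median 0.01), 9 of 10 genes of lipid droplets and cytosolic lipolysis (median −0.12) and 10 of 13 regulators (median −0.08), and none of these passed. *vit-2* averaged 653 ± 11.4 TPM in N2 *rpia-1* (RNAi) Day 0 and 948 ± 91.4 TPM in N2 EV (SD, n = 3 each).

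Among 9143 genes whose mean reached 5 TPM, those whose log2(TPM + 1) followed each lipase most closely over the 12 libraries were found by Pearson's r. The libraries share 2 strains that differ in most genes, so these r are a description. For *lipl-5* they were *cpr-6* (r = 0.99), *C05D2.8* (r = 0.98) and *C17F4.7* (r = 0.97). *cpr-6*, a cathepsin B-like protease, averaged 152 ± 18.4 TPM in N2 *rpia-1* (RNAi) Day 0, 209 ± 0.713 TPM in N2 EV, 411 ± 71.8 TPM in TU3401 *rpia-1* (RNAi) WL and 400 ± 27.8 TPM in TU3401 EV (SD, n = 3 each). It held nearly the same level as *lipl-5* in each group, and after removal of the group means r was still 0.90. For *lipl-2* the nearest genes were *cpr-4*, *C24B9.3* and *cpz-2* (r = 0.99 each), of which *cpr-4* is a cathepsin B and *cpz-2* a cathepsin Z gene. After removal of the group means r was 0.82 for *cpr-4*, 0.67 for *C24B9.3* and 0.85 for *cpz-2*. *lipl-2* had 2236 genes at r of at least 0.9 and *lipl-5* had 1155. *lipl-1* had 34, with *T09A5.5* (r = 0.95), *Y105E8B.6* (r = 0.95) and the histone gene *his-59* (r = 0.93) at the top, and r of 0.85, 0.89 and 0.82 for these 3 genes after removal of the group means. Too low in level, *lipl-3* and *lipl-4* were not ranked.

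**Figure D4:**
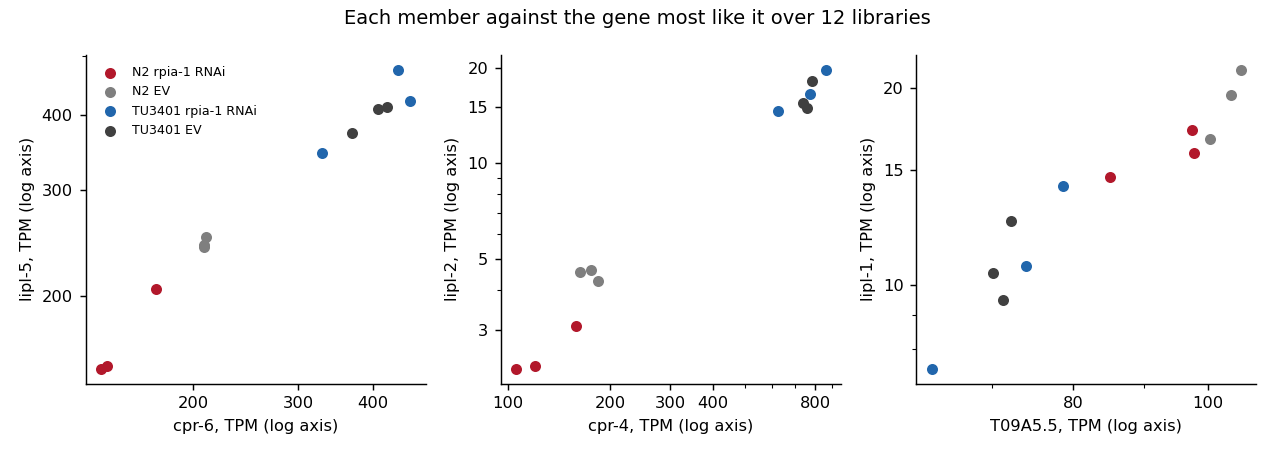
TPM of *lipl-5*, *lipl-2* and *lipl-1* (vertical axes, log) against the gene most like each over 12 libraries, *cpr-6*, *cpr-4* and *T09A5.5* (horizontal axes, log). Each point is a library, coloured by group. After removal of the group means r is 0.90 for *lipl-5* and *cpr-6*, 0.82 for *lipl-2* and *cpr-4* and 0.85 for *lipl-1* and *T09A5.5*, and the *lipl-2* points fall into 2 clouds by strain.

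Within the family, *lipl-5* and *lipl-2* had r = 0.95 over the 12 libraries, but only 0.12 after removal of the group means. They shared the order of the groups, and the spread of the libraries differed by strain. Replicate 1 was the highest knockdown library of both genes in N2. In the TU3401 knockdown it was the lowest in *lipl-5* and the highest in *lipl-2*. *lipl-5* and *lipl-1* had r = −0.76, and −0.69 after removal of the group means. In TU3401 *rpia-1* (RNAi) WL the library highest in *lipl-5*, replicate 3 with 475 TPM, was the lowest in *lipl-1* with 7.46 TPM. The library lowest in *lipl-5*, replicate 1 with 345 TPM, was the highest in *lipl-1* with 14.1 TPM. These r rest on 12 libraries of 4 groups and are given with no test.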

How the data were processed

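RNA of whole worms was sequenced (Illumina Stranded mRNA Prep, paired-end) in 12 samples of 4 groups, taken from the sample labels. The FPKM values and the values named TPM are as deposited by the authors. The latter were used as a linear signal, deposited by the authors with sums of 1025900 to 1036140 per library, slightly above those that TPM has by definition. The submitters' processing notes name FastQC 0.11.9, MultiQC 1.12, Trimmomatic 0.36, HISAT2 2.2.1 and featureCounts 1.6.2 without their roles, and the genome build is not given in the sources used here. No counts were used, so depth in reads is unknown and no counting interval is given. Multiplying FPKM by 1 factor per library gives TPM, and this factor lay at 1.70 to 1.93 in 10 libraries, at 1.39 in replicate 2 of N2 EV and at 1.21 in replicate 3 of TU3401 EV, so TPM was used. No 2 libraries were identical.

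For each comparison, log2(TPM + 1) of the genes whose mean reached 1 TPM was fitted in R 4.3.3 with limma 3.58.1 (eBayes, with the prior variance following the mean level), and p was adjusted by the method of Benjamini and Hochberg over all genes tested. The method was tested on simulated data. Python 3.11.15, numpy 2.4.6, pandas 2.3.3 and matplotlib 3.10.9 were used for tables and plots. The members and the gene lists were chosen with earlier results of these data known. Named are the 5 lipases, *rpia-1*, the other *lipl* genes, *hlh-30*, *mxl-3*, *lbp-8*, *atgl-1*, *nhr-49*, *nhr-80*, genes with the smallest p of each other list (up to 3) and the 3 genes most like each lipase of at least 1 TPM. Of 46904 genes, 46817 were found in the annotation, which gave coordinates. Tried as alternatives were pseudocounts of 0.1 and 5 TPM, the FPKM values, no minimum or one of 5 TPM, 2 other scalings, other variance models, a fit of all 12 libraries, a replicate block and leaving out each library in turn. A group of 2 then left is assumed to vary like the others in the fit.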

Additional observations from a re-analysis of the deposited data

Results flagged for a closer look

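The change of *lipl-4* differed in direction between the strains. In N2 every *rpia-1* (RNAi) Day 0 library was below every EV library (difference −0.31 on log2(TPM + 1)), and in TU3401 every *rpia-1* (RNAi) WL library was above every EV library (0.20). The change in N2 minus that in TU3401 was −0.51 (SE 0.14, from a fit with no minimum level). This difference was not tested, since it uses the N2 values known when the genes were chosen. The gene lies under the minimum of 1 TPM, and its highest value in any library was 1.16 TPM. In FPKM the TU3401 groups overlapped, since knockdown replicate 1 (0.181) lay below EV replicate 3 (0.246). The TU3401 difference was 0.097 with FPKM, 0.65 with a pseudocount of 0.1 TPM and 0.049 with one of 5 TPM.

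The change of *rpia-1* in N2 minus that in TU3401 was −1.72 (SE 0.14, adjusted p = 5.03e-04 by limma), with every knockdown library below every EV library in both strains. With FPKM the adjusted p by limma was 0.0565, and over all alternatives it ran over 3.43e-06 to 0.0565. Groups of 3 were not searched for libraries that stand apart in single genes.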

How the results depend on the processing

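In N2 the number of genes that passed was 1, and it was 2 with no minimum level, 282 with sample weights and 1 to 33 when libraries were left out in turn (33 without *rpia-1* (RNAi) Day 0 replicate 1, 2 without EV replicate 3). In TU3401 the number was 0, and it was 6 with no minimum level, 1 with sample weights and 0 to 1 when libraries were left out (1 without *rpia-1* (RNAi) WL replicate 3 and 1 without EV replicate 3). For the difference between the changes it was 1, and it was 0 with FPKM, 10 with no minimum level and 1 to 2 when libraries were left out. The cause was not tested. The count between the EV groups ran over 8274 to 13942. In N2 the differences of *lipl-5* (−0.69 to −0.46), *lipl-2* (−0.80 to −0.33) and *lipl-1* (−0.36 to −0.17) were negative under all alternatives that gave a value. The TU3401 differences, all near 0, changed sign. That of *lipl-1* was 0.27 with sample weights and −0.24 to 0.18 when libraries were left out. That of *lipl-2* was −0.10 with FPKM and −0.057 to 0.15 when libraries were left out. That of *lipl-5* was −0.12 with FPKM, −0.053 with sample weights and −0.059 to 0.17 when libraries were left out. FPKM moved the median of all genes to −0.13 in N2 and −0.15 in TU3401. Between the EV groups *lipl-1* ran over 0.11 (median ratio) to 1.42 (quantile normalization). The direction of *lipl-3* and *lipl-4* there was also computed under these scalings with no minimum level, which was added after seeing the data, and was positive in all (lowest 0.23). Levels under 1 TPM limit what can be said of *lipl-3* and *lipl-4*.

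Whether same-numbered libraries were paired is not known. The deposited column names carry the same numbers in the knockdown and EV groups of each strain. The deviations of same-numbered libraries correlated at −0.44, 0.04 and −0.41 in N2 and at 0.05, 0.44 and 0.42 in TU3401. In TU3401, knockdown replicates 2 and 3 correlated best with the EV library of their own number, and no N2 knockdown library did. With the replicate number as a block, the number of genes that passed was 1 in N2, 0 in TU3401 and 1 for the difference between the changes, the same counts as without it.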
